A study of Mus musculus with 16 samples.

Results

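The 10 genes described here are Tal1, Lyl1, Lmo2, Runx1, Erg and Fli1, the partners of Gata2 in the stem cell heptad of transcription factors, with Ldb1, Spi1 and the GATA2 target genes Samd14 and Adgrg1. They were taken by symbol from a table of read counts with 45706 gene IDs, with no cut on their values. The choice of genes was made with earlier results of these data known. All 10 were measured in all 16 RNA sequencing libraries of mouse bone marrow. The series concerns GATA2 haploinsufficiency, the loss of a single working copy of Gata2, in marrow put under demand by grafting few sorted stem and progenitor cells into lethally irradiated WT mice. LSK cells, the marrow fraction that lacks lineage markers and carries Sca-1 and Kit, gave 2 libraries labelled Day0_WT, 3 Day0_Gata2, 3 Day2_WT and 2 Day2_Gata2. Marrow cells carrying CD45.2, an allelic form of a surface protein of all leukocytes, gave 3 libraries labelled Week2_WT and 3 labelled Week2_Gata2. The labels name neither strain and age, nor the form of the Gata2 allele, nor the handling of the cells between Day0 and Day2. They also leave unsaid whether replicates were separate animals, so the p-values speak of the spread among these libraries alone, and that spread may be technical.

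GATA2 is a zinc finger protein that binds DNA at GATA motifs and is needed for blood stem cells to form and persist. In stem and progenitor cells it occupies many enhancers together with TAL1 and LYL1, basic helix-loop-helix proteins that bind E-boxes, with RUNX1, a runt-domain protein, and with ERG and FLI1, which bind ETS motifs. LMO2 binds no DNA itself and holds TAL1 or LYL1 and a GATA factor together, and LDB1 binds LMO2 and, by pairing with itself, brings distant enhancers to promoters. SPI1 (PU.1) is an ETS factor of the myeloid and B lineages that works against GATA factors in lineage choice. Samd14, which encodes a sterile alpha motif protein that acts in Kit signalling, and Adgrg1, which encodes the adhesion receptor GPR56 of stem cells, carry enhancers bound by GATA2.

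Promoter windows of 300 bases, from 250 before to 50 after a transcript start, were taken from RefSeq (GRCm38.p6, the same build as mm10). They were found for 6 of the 10 genes: Tal1, Lyl1, Runx1, Erg, Ldb1 and Adgrg1. The first window of 3 genes is shown because the changes between Day0 and Day2 described further on turn on them: the paralogs Lyl1 and Tal1 took different courses, and Erg was lower at Day2 in both genotypes. Capitals mark matches on either strand to a GATA core (GATAA), an ETS core (CCGGAA), the E-boxes CAGCTG and CAGATG, and the RUNX cores TGTGGT and TGCGGT.
Tal1: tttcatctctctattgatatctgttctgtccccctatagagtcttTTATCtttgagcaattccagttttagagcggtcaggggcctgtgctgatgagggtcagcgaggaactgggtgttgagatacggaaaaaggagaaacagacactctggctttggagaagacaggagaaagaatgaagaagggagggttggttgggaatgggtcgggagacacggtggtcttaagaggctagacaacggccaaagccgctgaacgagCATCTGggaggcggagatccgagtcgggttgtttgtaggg
Lyl1: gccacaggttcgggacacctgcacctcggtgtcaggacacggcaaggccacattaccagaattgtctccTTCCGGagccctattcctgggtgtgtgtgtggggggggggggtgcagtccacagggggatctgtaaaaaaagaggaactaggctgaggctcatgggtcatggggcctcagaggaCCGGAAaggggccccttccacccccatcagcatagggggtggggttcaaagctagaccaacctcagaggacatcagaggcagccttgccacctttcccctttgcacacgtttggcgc
Erg: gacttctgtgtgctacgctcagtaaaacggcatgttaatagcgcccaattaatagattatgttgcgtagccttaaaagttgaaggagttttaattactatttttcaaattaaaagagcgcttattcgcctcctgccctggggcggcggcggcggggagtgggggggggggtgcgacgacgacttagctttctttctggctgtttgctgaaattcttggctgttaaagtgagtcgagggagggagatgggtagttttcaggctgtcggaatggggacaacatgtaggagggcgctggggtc

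The Tal1 window (chr4:115056176-115056475, plus strand) held 1 GATA core and 1 CAGATG E-box. The Lyl1 window (chr8:84701207-84701506, plus strand) held 2 ETS cores, and the Erg window (chr16:95586544-95586843, minus strand) held none of the 6 motifs. RefSeq has other starts for 2 of these genes, and their windows read differently: the second Tal1 window held none of the motifs, and of the other 2 Erg windows 1 held a GATA core. Of all 32851 windows in the RefSeq table, 25.4% held GATAA, 14.9% CCGGAA, 17.2% CAGATG, 16.3% CAGCTG, 16.8% TGTGGT and 6.45% TGCGGT. A match describes the letters of the window only.

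Total counts ran from 19618830 to 68305582 in the LSK libraries and from 176933583 to 320717267 at Week2, and all 10 genes passed the low count filter of every test. Levels are given as CPM, counts scaled to library size, with TMM scaling over the 16 libraries. The shallowest library, Day0_WT replicate 1, was unlike its partner: across genes the log2 levels of the Day0_WT pair correlated at r = 0.878, and those of every other LSK pair at 0.986 or more. Gata2 itself (chr6:88193891-88207032, plus strand, mm10) had no lower mean level under the Gata2 label at any time. It stood at 428 and 328 CPM in Day0_WT and at 605, 745 and 680 in Day0_Gata2. At Day2 it stood at 290, 261 and 258 CPM in WT and at 488 and 733 in Day2_Gata2. At Week2 its means were 13.1 and 15.1 CPM, with overlap. In edgeR's quasi-likelihood test the Day0 and Day2 differences did not pass (adjusted p = 0.341 and 0.207), but the Day2 difference passed with DESeq2 (0.000599) and with limma voom (0.0285). It also passed without Day0_WT replicate 1, a fit that left replicate 2 alone in that group. The Day0 difference passed without Day0_WT replicate 2, where replicate 1 alone stood for Day0_WT. Directions between genotypes are therefore those of the libraries so labelled. The summed level of 8 LSK marker genes was 2010 to 2510 CPM at Day0, 1560 to 1760 at Day2 and 475 to 1090 at Week2. Of these markers, Flt3, a cytokine receptor of early progenitors, had a mean of 490 CPM in Day0_WT and 89.2 in Day2_WT. At Week2 neutrophil markers summed to 19700 to 77900 CPM and B cell markers to 2050 to 3370, so the CD45.2 libraries held RNA of mature marrow cells.

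The genes differed widely in level. Exons of 7 of the 10 overlap no other annotated gene, while those of Lyl1, Runx1 and Ldb1 share 0.222%, 0.881% and 3.84% of their bases with a gene on the opposite strand. Per kilobase of merged exons, Lmo2 and Adgrg1 had the highest means of the 10 in Day0_WT, at 391 and 281 CPM per kb (n = 2). Spi1 stood at 75, Ldb1 at 46.9, Lyl1 at 33.3 and Fli1 at 32.5 CPM per kb. Erg stood at 18.7, Runx1 at 15.6, Tal1 at 8.31 and Samd14 at 2.91. In Day0_Gata2 the same 2 genes led, with Adgrg1 at 412 and Lmo2 at 361 CPM per kb (n = 3). The bridging subunit Lmo2 was thus far more abundant as mRNA than the helix-loop-helix factor Tal1 that it binds, at 361 against 7.81 CPM per kb in Day0_Gata2.

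**Figure D1:**
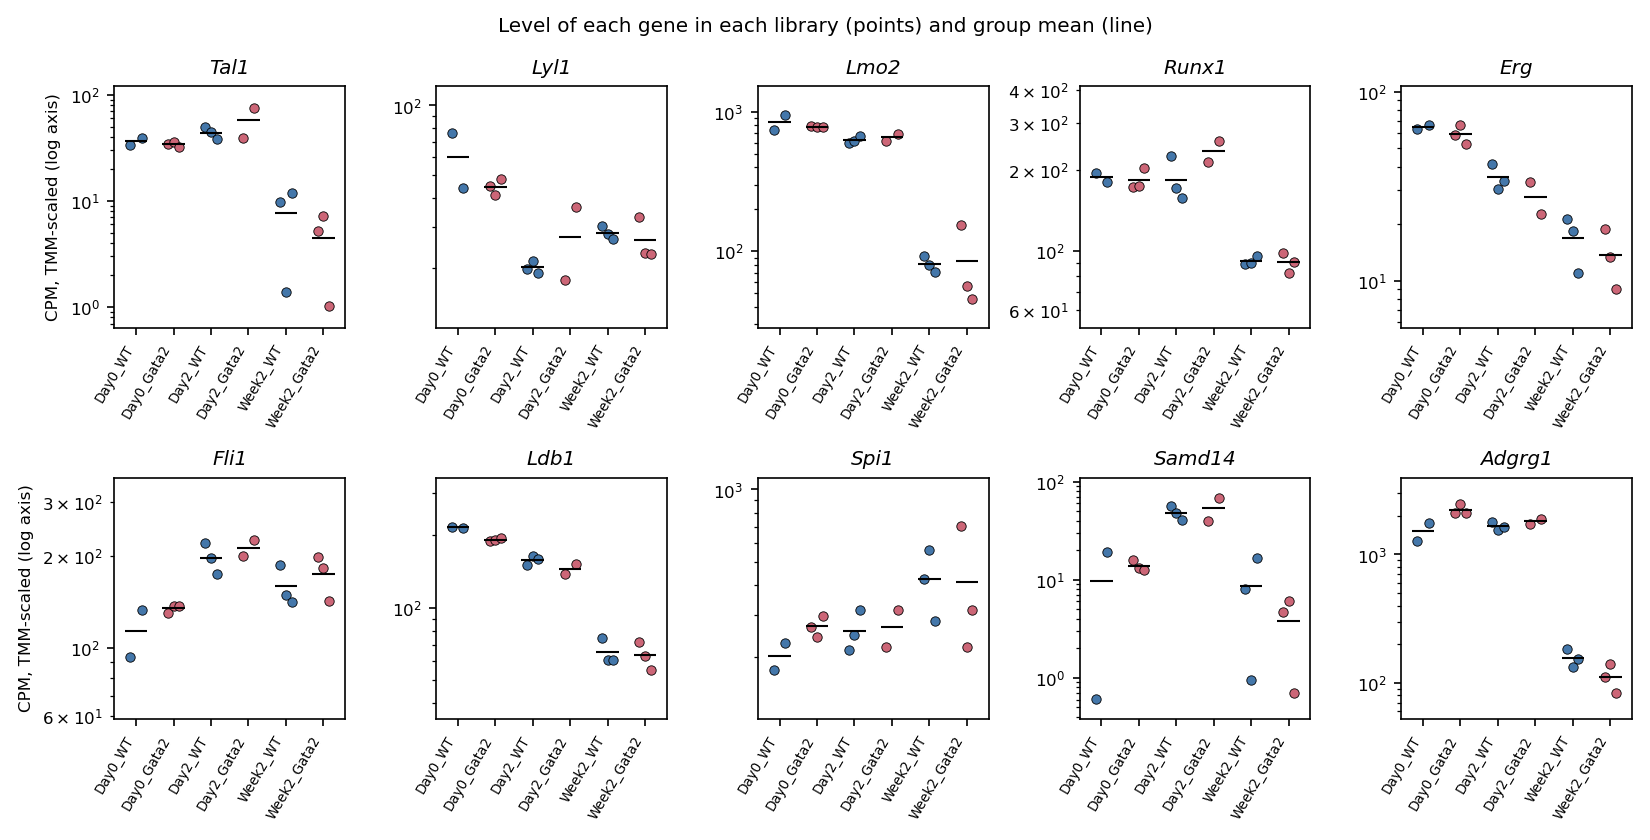
Level of each of the 10 genes in each of the 16 libraries (points, CPM with TMM scaling, log axis) with the group mean (line); the columns are the 6 groups. Lmo2, Adgrg1, Tal1 and Erg lie lower in the Week2 libraries than in any LSK library, while Spi1 has its highest means at Week2 and Samd14 at Day2.

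The comparison of Day2 with Day0 asked how LSK cells changed over the interval. In WT, 4 of the 10 genes fell (Lyl1, Lmo2, Erg and Ldb1) and 1 rose (Fli1), a count to be read against 29.9% of 19162 genes called in either direction, 17.9% lower and 11.9% higher. In the libraries labelled Gata2, Erg fell and Fli1 rose, against 9.3% of genes called, 4.82% lower and 4.48% higher. The median log2 fold change of the 10 genes was 0.02 in WT and -0.13 in the libraries labelled Gata2, against -0.11 and -0.07 over all genes. Both comparisons include Day0_WT replicate 1, directly in WT and through the shared spread in the other. In bulk RNA, fewer cells of a type and less RNA per cell cannot be told apart.

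Of the helix-loop-helix pair, Lyl1 (chr8:84701457-84704715, plus strand) fell in WT. It stood at 75.8 and 44.2 CPM in the Day0_WT libraries and at 19.8, 21.5 and 19.1 in Day2_WT. Every Day2 library lay below both Day0 libraries, with -1.61 (SE 0.32) as log2 fold change (adjusted p = 0.00672). The call was kept in 18 of 20 alternative fits, and lost with limma voom and with the TEC share described further on. Day0_WT replicate 1 was the high one: without it the log2 fold change was -1.16, with replicate 2 as the only Day0_WT library. Under the Gata2 label, Lyl1 stood at 44.9, 41.3 and 48.2 CPM at Day0 and at 17.7 and 36.7 at Day2. Again no Day2 library reached the Day0 range, but the Day2 pair was wide apart and the log2 fold change of -0.72 (SE 0.33) did not pass (adjusted p = 0.203).

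Tal1 (chr4:115056426-115071755, plus strand), the paralog of Lyl1, was not called. It stood at 33.4 and 39.4 CPM in Day0_WT and at 49.6, 44.3 and 38.2 in Day2_WT, so the groups overlapped (log2 fold change 0.25, SE 0.26, adjusted p = 0.493). Libraries labelled Gata2 had 34.3, 35.8 and 32.5 CPM at Day0 and 39.2 and 75.5 at Day2. Both Day2 libraries were above the Day0 range, with a log2 fold change of 0.74 (SE 0.26) that did not pass (adjusted p = 0.102). Day2_Gata2 replicate 2 held the highest Tal1 level of the 16 libraries, and it also held more Lyl1 than any other Day2 library.

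Both bridging subunits fell in WT by modest amounts. Lmo2 (chr2:103957986-103981878, plus strand) stood at 741 and 952 CPM in Day0_WT and at 598, 613 and 673 in Day2_WT, without overlap (log2 fold change -0.45, SE 0.13, adjusted p = 0.0256). The Lmo2 call was kept in 14 of 20 alternative fits. It was lost with limma voom, a replicate block, all 16 libraries in 1 fit and only the groups compared. It was also lost without Day2_WT replicate 2 (adjusted p = 0.0814). Without Day0_WT replicate 2, which left replicate 1 alone in its group, the log2 fold change was -0.28. Under the Gata2 label, Lmo2 stood at 786, 781 and 776 CPM at Day0 and at 617 and 688 at Day2 (log2 fold change -0.26, SE 0.13, adjusted p = 0.242). The Day0_Gata2 libraries were within 10 CPM of each other, and both Day2 libraries lay below them.

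Ldb1 (chr19:46031570-46045214, minus strand) stood at 218 and 214 CPM in Day0_WT and at 151, 165 and 160 in Day2_WT, and the difference on the log2 scale was -0.47 (SE 0.11, adjusted p = 0.0133). Its levels in the libraries labelled Gata2 were 189, 192 and 195 CPM at Day0 and 138 and 152 at Day2. The spread within each group was small beside the gap between them in both genotypes. The log2 fold change in the libraries labelled Gata2 was -0.40 (SE 0.11, adjusted p = 0.0531), just short of the threshold, and passed with DESeq2 (-0.42, adjusted p = 0.00386). The WT call was kept in 15 of 20 alternative fits. It was lost with limma voom, a replicate block, all 16 libraries in 1 fit, only the groups compared, and the TEC share described further on.

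The ETS factors Erg and Fli1 moved in opposite directions in both genotypes. Erg (chr16:95359169-95586593, minus strand) stood at 63.4 and 66.2 CPM in Day0_WT and at 41.6, 30.5 and 33.8 in Day2_WT. Erg in the libraries labelled Gata2 stood at 58.8, 66.9 and 52.5 CPM at Day0 and at 33.1 and 22.4 at Day2. No Day2 library reached the Day0 range of its genotype, and the WT value on the log2 scale was -0.90 (SE 0.21, adjusted p = 0.0145) and the other -1.10 (SE 0.23, adjusted p = 0.0164). Erg kept its call in WT in 14 of 20 alternative fits. It lost that call without Day2_WT replicate 2 (adjusted p = 0.0552), with limma voom and with a replicate block. The TEC share, all 16 libraries in 1 fit and only the groups compared also lost it. The other call was kept in 16 of 20. It was lost with all 16 libraries in 1 fit, and without Day0_Gata2 replicate 1 (adjusted p = 0.0568) or 2 (0.073). Leaving out Day2_Gata2 replicate 2, so that replicate 1 stood alone, also lost it.

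Fli1 (chr9:32422204-32542861, minus strand) stood at 93.7 and 133 CPM in Day0_WT and at 220, 197 and 174 in Day2_WT, and the difference on the log2 scale was 0.78 (SE 0.16, adjusted p = 0.00895). This WT call was kept in 17 of 20 alternative fits, and lost with limma voom, the TEC share and only the groups compared. Day0_Gata2 libraries had 130, 137 and 137 CPM and Day2_Gata2 libraries 200 and 225. The groups did not overlap in either genotype, and the second log2 fold change was 0.66 (SE 0.16, adjusted p = 0.0315). This second Fli1 call was kept in 11 of 20 alternative fits. It was lost without any 1 of 6 libraries, namely the 3 Day0_Gata2 libraries, the 2 Day2_Gata2 libraries and Day2_WT replicate 2. It was also lost with no low count filter, a replicate block and all 16 libraries in 1 fit. The Erg level was thus below the Fli1 level per kb at Day0, at 17.1 and 38.6 CPM per kb in Day0_Gata2, and further below it at Day2, at 8 and 60.9 CPM per kb in Day2_Gata2.

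Spi1, the third ETS factor (chr2:91082390-91115756, plus strand), stood at 176 and 228 CPM in Day0_WT and at 214, 246 and 314 in Day2_WT. Day0_Gata2 libraries had 266, 243 and 296 CPM and Day2_Gata2 libraries 220 and 313. The groups overlapped in both genotypes. Runx1 (chr16:92601466-92826149, minus strand) stood at 195 and 181 CPM in Day0_WT and at 225, 171 and 157 in Day2_WT, with overlap. Its levels were 173, 174 and 203 CPM in Day0_Gata2 and 214 and 258 in Day2_Gata2, where both libraries lay above the Day0 range (log2 fold change 0.37, SE 0.17, adjusted p = 0.22).

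Of the GATA2 targets, Samd14 (chr11:95009879-95026087, plus strand) had its highest levels at Day2. It stood at 0.604 and 19 CPM in Day0_WT, where replicate 1 had 13 counts, and at 56.3, 48.1 and 40.2 in Day2_WT. Its levels were 15.8, 13.1 and 12.5 CPM in Day0_Gata2 and 40 and 68.8 in Day2_Gata2. Every Day2 library lay above every Day0 library, and the Day0_WT pair was wide apart. Neither log2 fold change passed: the WT value was 2.27 (SE 0.93, adjusted p = 0.0919) and the other 1.98 (SE 0.84, adjusted p = 0.177). Without Day0_WT replicate 1 the values were 1.31 in WT, with replicate 2 as the only Day0_WT library, and 1.96 in the libraries labelled Gata2. Without Day0_WT replicate 2 they were 6.28 and 1.86, the first resting on the library with 13 counts as the only Day0_WT library.

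The receptor gene Adgrg1 (chr8:94974751-95014217, plus strand) stood at 1280 and 1770 CPM in Day0_WT and at 1800, 1560 and 1630 in Day2_WT. Under the Gata2 label it stood at 2090, 2490 and 2120 CPM at Day0 and at 1740 and 1900 at Day2. The WT groups overlapped, while both Day2_Gata2 libraries lay below the Day0_Gata2 range (log2 fold change -0.29, SE 0.15, adjusted p = 0.276).

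**Figure D2:**
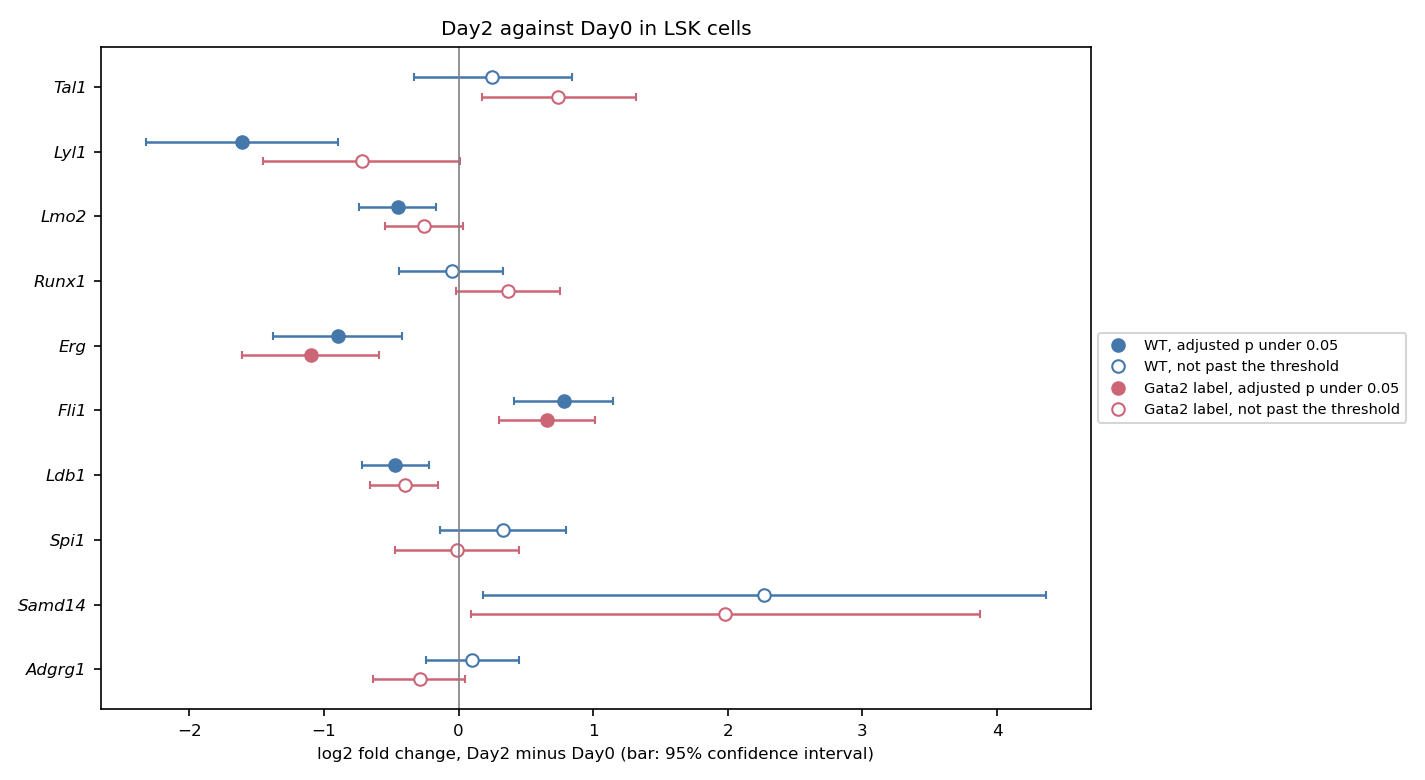
Log2 fold change of each gene from Day0 to Day2 in LSK cells (points; bars are 95% confidence intervals), in WT and in the libraries labelled Gata2; filled points passed an adjusted p under 0.05. Erg lies below 0 and Fli1 above 0 in both genotypes, and the Samd14 intervals are the widest.

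Markers of other cells and a measure of the libraries also differed between Day0 and Day2. Megakaryocyte markers (6 genes) summed to 210 to 384 CPM at Day0 and 1700 to 2340 at Day2, and neutrophil markers (6 genes) to 294 to 1120 and 1290 to 2880. Erythroid markers (8 genes) summed to 50.4 to 83.7 CPM at Day0 and 22.6 to 43.2 at Day2. Among them Klf1 had means of 27.7 and 2.59 CPM in WT. The globin gene Hbb-bt went the other way, from 3.71 to 19.9 CPM in WT and from 3.68 to 8.64 in the libraries labelled Gata2. Mast cell and basophil markers (6 genes) summed to 328 to 668 and 142 to 221 CPM, a gap that lay mostly in Prss34, a basophil protease (means of 275 and 20.2 CPM in WT), whereas Cpa3 and Hdc had higher means at Day2 (51.8 and 75.4, and 37.9 and 47.8, in WT). B cell markers (5 genes) summed to 18.7 to 96.8 CPM at Day0 and 0.284 to 4.2 at Day2, T and NK cell markers (5 genes) to 5.81 to 10.6 and 0.403 to 1.25, and endothelial and stromal markers (6 genes) to 22.3 to 80 and 10.5 to 13.6, without overlap. Of the endothelial and stromal markers, Kdr (3.4 and 9.08 CPM in WT) and Lepr (0.0929 and 0.171) had higher means at Day2. Monocyte markers (6 genes) overlapped, at 570 to 1460 and 1060 to 2140 CPM. In Day2_WT 3 of the B cell and 2 of the T and NK cell markers had no count, and in Day2_Gata2 3 of the latter. All megakaryocyte, neutrophil, erythroid and mast cell and basophil markers had counts in each LSK group. Their part in the changes of the 10 genes was not tested. Loci of the TEC class, which await experimental evidence, took 0.131% to 0.362% of counts at Day0 and 0.0314% to 0.0702% at Day2, without overlap. With that share as a covariate, 1 of the 10 genes passed in WT (Lmo2), against 12.3% of all genes. In the libraries labelled Gata2 5 passed, against 26.3%. Limma voom called 0 of the 10 in WT, against 7.07% of all genes, and 6 in the libraries labelled Gata2, against 21.5%.

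Other genes of the same complexes and lineage choices were read from a list of 28 genes, which holds GATA factors, E proteins, LDB1 cofactors, RUNX and ETS relatives and factors that work with or against GATA factors. In WT, 8 of the 28 fell and 2 rose from Day0 to Day2, and in the libraries labelled Gata2 5 fell and 1 rose, to be read against the 17.9% and 11.9% of all genes called lower and higher in WT and the 4.82% and 4.48% in the libraries labelled Gata2. Those of lowest p in WT were Ssbp3, whose protein stabilises LDB1 (109 to 45.7 CPM, log2 fold change -1.28, adjusted p = 0.000875), Klf1, the erythroid Krüppel-like factor, and Ikzf1, a lymphoid zinc finger factor. Klf1 fell from a mean of 27.7 to 2.59 CPM (-3.43, adjusted p = 0.00128) and Ikzf1 from 197 to 86.7 (-1.21, adjusted p = 0.00315). In the libraries labelled Gata2 they were Klf1 again (27.6 to 1.31 CPM, -4.40, adjusted p = 0.00199), the repressor gene Gfi1 (72.8 to 30.1, -1.28, 0.0135) and the ETS gene Ets1 (37.7 to 11.6, -1.70, 0.0248). The Gfi1 call was lost without either Day2_Gata2 library or Day0_Gata2 replicate 1 or 2 (adjusted p from 0.0532 to 0.116), and the Ets1 call without any 1 of the 5 libraries labelled Gata2 (0.0555 to 0.161). Klf1 is also among the 8 erythroid markers.

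A second list held 13 genes with GATA2-bound elements, 4 of which are also in the first list. Of these 13, 1 rose and 1 fell in each genotype. Both are among the shared genes and were already counted in the first list. Over all genes, 29.9% were called in WT and 9.3% in the libraries labelled Gata2. The gene that rose was Gfi1b, which encodes a transcriptional repressor found in the erythroid and megakaryocyte lineages. Its means were 39 and 159 CPM in WT (log2 fold change 2.01, adjusted p = 0.0288) and 46.8 and 204 in the libraries labelled Gata2 (2.13, adjusted p = 0.037). The gene that fell was Zfpm1, which encodes the GATA cofactor FOG1, from 185 to 33.7 CPM in WT (-2.48, adjusted p = 0.0039) and from 183 to 57 in the libraries labelled Gata2 (-1.68, adjusted p = 0.0494). Calls of Gfi1b did not hold with 1 library left out: in WT it was lost without any 1 Day2_WT library or Day2_Gata2 replicate 1 (adjusted p from 0.0599 to 0.0659), and in the libraries labelled Gata2 without any 1 of them or any 1 Day2_WT library (0.0564 to 0.196). Zfpm1 kept its WT call without any 1 library, and lost the other without Day2_Gata2 replicate 1, Day2_WT replicate 2 or 3 or any 1 Day0_Gata2 library (0.0659 to 0.223). The median log2 fold change of this list was 0.15 in WT and 0 in the libraries labelled Gata2, against -0.11 and -0.07 over all genes. The 28-gene list had medians of -0.29 and -0.15.

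The genotype comparison asked whether the 10 genes differed between WT and the libraries labelled Gata2 at each time. At Day0 0 of the 10 passed edgeR's test, as did 0% of all genes, and 1 had an unadjusted p under 0.05, against 13.5% of genes. DESeq2 and limma voom also called 0 of the 10, against 2.18% and 0% of all genes. That 1 gene was Adgrg1, at 2090, 2490 and 2120 CPM in the libraries labelled Gata2 and 1280 and 1770 in WT. Every library so labelled was above both WT libraries, and the log2 fold change was 0.53 (SE 0.16, 95% interval 0.18 to 0.88, adjusted p = 0.341).

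Groups did not overlap at Day0 for 3 of the 10 genes, against 32.8% of genes. Besides Adgrg1 these were Spi1, whose libraries labelled Gata2 were higher (log2 fold change 0.39, SE 0.21, adjusted p = 0.418), and Ldb1, whose libraries labelled Gata2 were lower (-0.20, SE 0.11, adjusted p = 0.438). The other 7 overlapped, and over the 10 genes the log2 fold changes ran from -0.45 to 0.53 with a median of -0.09, against 0.02 over all genes. The lowest was that of Lyl1 (-0.45, SE 0.32, adjusted p = 0.514), which was 0.02 without Day0_WT replicate 1. Without Day0_WT replicate 2, so that Day0_WT replicate 1 alone stood for its group, Adgrg1 (0.94, adjusted p = 0.00287) and Spi1 (0.75, 0.0493) passed, with 4 of the 10 genes and 39.9% of all genes called.

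The Day0 groups also differed in measures of the libraries. The share of TEC loci was 0.362% and 0.187% in Day0_WT, above the 0.131% to 0.159% of Day0_Gata2. Endothelial and stromal markers (6 genes) summed to 80 CPM in Day0_WT replicate 1 and to 22.3 to 27.6 in the other Day0 libraries. Their part in the Day0 values was not tested beyond a fit with the TEC share, in which 0 of the 10 genes and 0% of all genes passed.

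At Day2 0 of the 10 genes passed edgeR's test, with 0% of all genes called and 0 of the 10 at an unadjusted p under 0.05, against 5.58% of genes. DESeq2 and limma voom called 0 of the 10 as well, against 0.751% and 0.12% of all genes. All 10 genes overlapped between the groups, whereas 21.1% of genes did not. Log2 fold changes ran from -0.35 to 0.44. For Runx1 the value was 0.36 (SE 0.17, adjusted p = 0.92), for Tal1 0.38 (SE 0.26, 0.991) and for Erg -0.35 (SE 0.22, 0.981). The Tal1 value turned to -0.16 without Day2_Gata2 replicate 2. The 95% interval for Runx1 ran from -0.03 to 0.75.

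At Week2 0 of the 10 genes passed edgeR's test and 0 had an unadjusted p under 0.05, against 0% and 0.238% of all genes. All 10 overlapped between the genotypes, whereas 1.58% of genes did not. DESeq2 called 0 of the 10, against 0.00274% of all genes, and limma voom, which called 35.3% of all genes there, called 1 (Fli1). Samd14 had the largest difference, with a log2 fold change of -0.95 (SE 0.99), followed by Tal1 (-0.60, SE 0.89) and Adgrg1 (-0.39, SE 0.42), each with an adjusted p of 1. Within the Week2 groups Tal1 and Samd14 had coefficients of variation of 72.4% and 91.8% in WT and 70.5% and 73.3% in the libraries labelled Gata2.

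**Figure D3:**
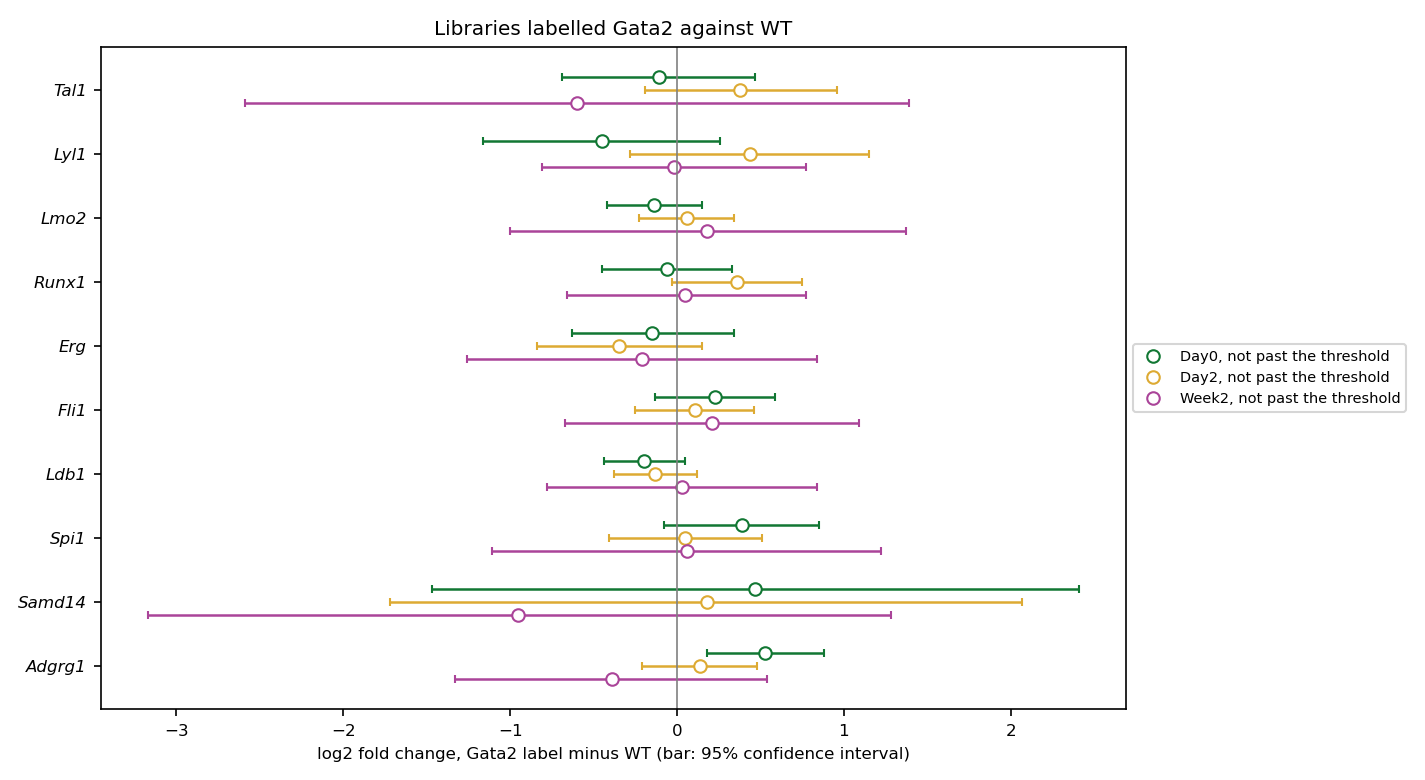
Log2 fold change of each gene, libraries labelled Gata2 against WT, at Day0, Day2 and Week2 (points; bars are 95% confidence intervals; open points did not pass an adjusted p under 0.05). All points are open, and the Week2 intervals of Tal1 and Samd14 are among the widest.

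Whether the genotype difference itself changed with time was tested with interaction terms. Between Day0 and Day2 0 of the 10 genes passed edgeR's test (0% of all genes called) and 0 had an unadjusted p under 0.05, against 10.4% of genes. DESeq2 and limma voom called 0 of the 10, against 1.13% and 0% of all genes. The terms ran from -0.40 for Adgrg1 (SE 0.22, adjusted p = 0.534) to 0.89 for Lyl1 (SE 0.45, adjusted p = 0.509). The changes over time in WT and in the libraries labelled Gata2 are therefore not shown to differ for any of the 10. Between Day0 and Week2 0 passed as well (0% of genes called), and 1 of the 10 had an unadjusted p under 0.05, against 4.68% of genes. That gene was Adgrg1 (-1.04, SE 0.30, 95% interval -1.67 to -0.41, adjusted p = 0.876), whose genotype difference was 0.53 at Day0 and -0.39 at Week2. Of the 28-gene and 13-gene lists, 0 genes passed in any genotype comparison or interaction. At an unadjusted p under 0.05 the lists held 4 and 2 genes at Day0, 1 and 0 at Day2, and 0 and 0 at Week2, where 13.5%, 5.58% and 0.238% of all genes did. For the interactions they held 3 and 0 between Day0 and Day2, against 10.4% of genes, and 1 and 1 between Day0 and Week2, against 4.68%.

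The Week2 libraries were set against the Day0 libraries of the same genotype to show how the 10 genes lie in mature marrow cells. Population, depth and time differ together between these groups and cannot be told apart, and the median log2 fold change of all genes was 0.95 in WT and 1.22 in the libraries labelled Gata2. In WT, 7 of the 10 genes fell and 1 rose, against 11.6% of genes lower and 21.9% higher (33.5% called in all). In the libraries labelled Gata2, 7 fell and 0 rose, against 10.4% lower and 32.6% higher (43% in all). The medians of the 10 genes were -1.41 and -1.72. The 7 genes that fell were the same in both: Tal1, Lyl1, Lmo2, Runx1, Erg, Ldb1 and Adgrg1.

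Adgrg1 and Lmo2 had the largest falls in both genotypes. Adgrg1 stood at 182, 133 and 153 CPM in Week2_WT and at 110, 141 and 82.9 in Week2_Gata2, with log2 fold changes from Day0 of -3.29 (SE 0.23, adjusted p = 5.9e-08) and -4.33 (SE 0.23, adjusted p = 3.84e-09). Lmo2 stood at 92, 79.8 and 71 CPM in Week2_WT and at 154, 56.8 and 45.3 in Week2_Gata2 (-3.39, SE 0.36, adjusted p = 5.23e-06, and -3.20, SE 0.34, 4.01e-06). All 6 Week2 libraries lay far below every LSK library for both genes.

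Tal1 stood at 9.75, 1.38 and 11.9 CPM in Week2_WT and at 5.25, 7.21 and 1.02 in Week2_Gata2, with log2 fold changes of -2.25 (SE 0.72, adjusted p = 0.0322) and -2.93 (SE 0.70, 0.00737). The WT call of Tal1 was kept in 20 of 26 alternative fits. It was lost with limma voom, a replicate block, and without either Day0_WT library. It was also lost without Day0_Gata2 replicate 1 or 2 (adjusted p = 0.0507 each). Lyl1 stood at 30.3, 27.9 and 26.7 CPM in Week2_WT and at 33.1, 23.1 and 22.9 in Week2_Gata2, with log2 fold changes of -1.08 (SE 0.29, adjusted p = 0.0126) and -0.76 (SE 0.26, 0.0304). The Week2 levels of Lyl1 lay within its Day2 range, whereas those of Tal1 lay below every LSK library. The Lyl1 call in WT was kept in 23 of 26 alternative fits. It was lost with limma voom, only the groups compared, and without Day0_WT replicate 1 (-0.65). The Lyl1 call under the Gata2 label was kept in 18 of 26. It was lost without any 1 of the 3 Day0_Gata2 libraries or without Week2_Gata2 replicate 2 or 3 (adjusted p from 0.0624 to 0.104). RLE and upper quartile scaling also lost it, as did leaving out both Week2 libraries of few erythroid counts.

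Erg stood at 21.2, 18.3 and 11 CPM in Week2_WT and at 18.8, 13.3 and 8.99 in Week2_Gata2 (log2 fold changes -1.94, SE 0.31, adjusted p = 0.000287, and -2.12, SE 0.29, 5.75e-05). Ldb1 stood at 74.5, 60.5 and 60.6 CPM and at 72, 63 and 54.9 (-1.73, SE 0.17, adjusted p = 1.93e-06, and -1.60, SE 0.15, 1.48e-06). Runx1 stood at 89.4, 89.8 and 95.1 CPM and at 97.8, 82.2 and 90.6 (-1.04, SE 0.18, adjusted p = 0.000636, and -1.02, SE 0.17, 0.000285). Runx1 varied least of the 10 genes within the Week2 groups, with a coefficient of variation of 3.49% in WT and 8.7% in the libraries labelled Gata2. Lmo2, Runx1, Erg, Ldb1 and Adgrg1 passed in all 26 alternative fits of each of these comparisons.

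Fli1 and Spi1 were the 2 genes not lower at Week2. Fli1 stood at 187, 149 and 141 CPM in Week2_WT and at 198, 182 and 142 in Week2_Gata2, above every Day0 library of the same genotype, with log2 fold changes of 0.49 (SE 0.21, adjusted p = 0.0713) and 0.37 (SE 0.18, adjusted p = 0.1). Spi1 stood at 424, 557 and 284 CPM in Week2_WT and at 701, 221 and 315 in Week2_Gata2. It rose in WT (1.06, SE 0.39, adjusted p = 0.0452), while the groups overlapped in the libraries labelled Gata2 (0.62, SE 0.33, 0.135). The Spi1 call was kept in 11 of 26 alternative fits. It was lost without either Day0_WT library, either Day2_Gata2 library, Day2_WT replicate 1 or 2, Day0_Gata2 replicate 1 or 2, or Week2_WT replicate 1 or 2 (adjusted p from 0.0528 to 0.2). Samd14 stood at 8.05, 0.96 and 16.6 CPM in Week2_WT, which overlapped with Day0_WT, and at 4.66, 6.1 and 0.696 in Week2_Gata2, all below the Day0_Gata2 range (-1.85, SE 1.04, adjusted p = 0.158).

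Of the 28-gene list, 10 fell and 6 rose in WT, against 11.6% of all genes lower and 21.9% higher, and 12 fell and 5 rose in the libraries labelled Gata2, against 10.4% and 32.6%. Meis1, a homeobox gene of stem cells, fell from a mean of 221 to 3.68 CPM in WT and from 190 to 3.53 in the libraries labelled Gata2. Ssbp2, a partner of LDB1, fell from 109 to 26.9 and from 111 to 25 CPM. Ets1, an ETS factor of lymphocytes, rose from 26.8 to 498 and from 37.7 to 513 CPM. Of the 13 genes of the second list, 6 fell and 1 rose in WT, to be read against the same shares. In the libraries labelled Gata2, 7 fell and 1 rose. Some of those that fell are also in the 28-gene list and were counted there. Among those that fell in WT were Cd34, a surface protein of progenitors (503 to 17 CPM), and Kit (521 to 49.9 CPM), whose protein was used to sort the LSK cells.

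Within the Week2 groups, Tal1 and Samd14 followed the erythroid content of the libraries. The 8 erythroid markers, globin genes among them, summed to 31 CPM in Week2_Gata2 replicate 3 and 31.8 in Week2_WT replicate 2, to 849 and 2390 in Week2_Gata2 replicates 1 and 2, and to 3200 and 9530 in Week2_WT replicates 1 and 3. Tal1 took the same order, at 1.02, 1.38, 5.25, 7.21, 9.75 and 11.9 CPM. So did Samd14, at 0.696, 0.96, 4.66, 6.1, 8.05 and 16.6 CPM. This order over 6 libraries is a description, and the erythroid part in the Week2 values of both genes was not tested. The low pair comprised 1 library of each genotype.

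Spi1 was highest in the libraries highest in neutrophil, monocyte and mast cell and basophil markers. Neutrophil markers summed to 77900 CPM in Week2_Gata2 replicate 1, 66900 in Week2_WT replicate 1 and 54200 in Week2_WT replicate 2, and to 19700 to 20900 in the other 3 libraries. Monocyte markers divided the libraries in the same way, at 12000 to 16000 against 4530 to 5680 CPM, as did mast cell and basophil markers, at 404 to 620 against 223 to 282. The 3 highest Spi1 levels were in the same 3 libraries, at 701, 424 and 557 CPM, and those of the others lay between 221 and 315. The highest Lmo2 level at Week2, 154 CPM, was also that of Week2_Gata2 replicate 1. The part of these cell types in the values was not tested.

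**Figure D4:**
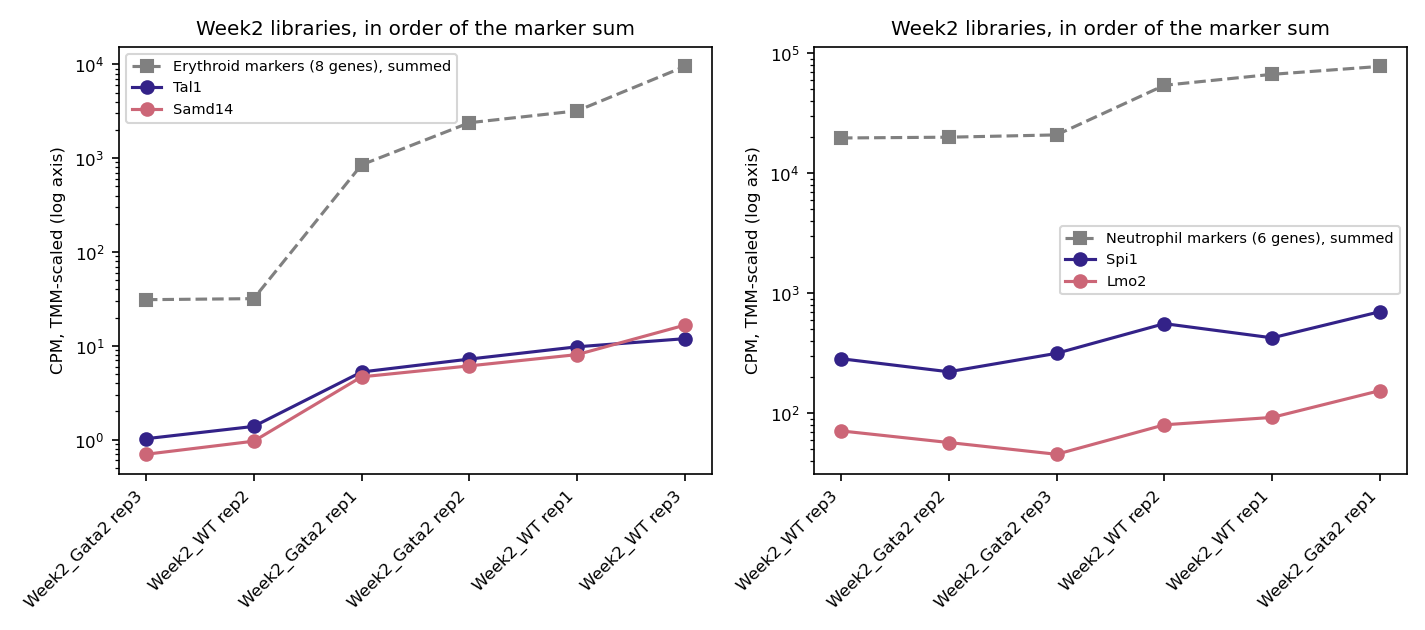
Levels in the 6 Week2 libraries (CPM with TMM scaling, log axis). Tal1 and Samd14 are beside the summed erythroid markers, and Spi1 and Lmo2 beside the summed neutrophil markers (squares, dashed). Libraries are in order of the marker sum. Tal1 and Samd14 take the order of the erythroid sum, from 31 to 9530 CPM, and the 3 highest Spi1 levels are in the 3 libraries highest in neutrophil markers.

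The genes most like each member were found by the root mean square difference of centred log2 levels over the 16 libraries, among 10834 genes. Samd14 was nearest to Gfi1b (0.44) and then to Trim58 (0.51), and Tal1 to the potassium channel gene Kcnn4 (0.398) and to Gata1 (0.536), the erythroid GATA factor. Adgrg1 was nearest to Eng (0.338), which encodes the endothelial and stem cell receptor endoglin, and to Lzts2 (0.344). Lmo2 was nearest to Hsd3b7 (0.243) and Galnt6 (0.289), Erg to Tmem250-ps (0.313) and Iqgap2 (0.315), and Lyl1 to Slc25a28 (0.165) and Tmem259 (0.191).

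The genes that varied less had closer neighbours. Fli1 was nearest to Mapre1 (0.0752) and Tax1bp1 (0.096), Ldb1 to Tmem106c (0.111) and Supt3 (0.137), Runx1 to Rad51b (0.148) and Dph5 (0.157), and Spi1 to Gnai2 (0.159) and Rgs19 (0.187). Among the 10 genes, the closest pairs were Erg with Ldb1 (0.338) and Runx1 with Ldb1 (0.343), followed by Lmo2 with Adgrg1 (0.503) and Fli1 with Spi1 (0.524). Tal1 was nearest to Lmo2 (0.727), Lyl1 to Runx1 (0.673) and Samd14 to Tal1 (1.12). These distances share the libraries and their division into LSK and Week2 cells.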

How the data were processed

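Gene-level whole-number counts for 16 libraries were used as the authors deposited them, by Ensembl ID. The submitters' processing notes name Trimmomatic 0.38, STAR 2.5.2b and mm10; the counter is not given in the sources used here, nor its strand setting. Library kits were of 2 kinds, for stranded mRNA and for low input, per the labels' protocols, with no assignment to samples.

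Symbols (45143 of 45706 IDs) and coordinates came from GENCODE M21 (GRCm38). Tests were run in edgeR 4.0.16 (R 4.3.3) on the deposited counts: TMM, filterByExpr and the robust form of the quasi-likelihood test, p adjusted by Benjamini-Hochberg over all genes tested, and a threshold of 0.05. Day0 and Day2 were compared in a fit of the 10 LSK libraries (19162 genes), Week2 genotypes in a fit of 6 libraries (36485), and Week2 with Day0 in a fit of all 16 (31164), giving 9 comparisons, each adjusted on its own. Levels are CPM with TMM scaling; likeness used log2 (CPM + 1), that is a pseudocount of 1, for genes with a mean of 5 CPM or more. Columns were matched to samples by name.

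All 10 members were tested in every comparison and are given singly or by their range. Also named by rule were Gata2 as the check of the labels, the up to 3 called genes of lowest p of each list, and the 2 nearest genes by likeness. A list gene that this rule names is not reported here. Members and lists were chosen with earlier results of these data known. Replicates differed by more than sampling noise in every pair (lowest chi-square per degree of freedom 28.4). The tests were tried on simulated counts first. For the Day0 genotype difference they recovered 22.7% of 2-fold and 56.1% of 4-fold changes. For WT over time they recovered 15.2% and 68.2%, and for the Week2 genotype difference 0% and 15.2%. Small differences could therefore be missed. Other settings were RLE and upper quartile scaling, 2 other low count filters, DESeq2 1.42.0, limma 3.58.1 voom with quality weights, other sets of libraries, each library left out, a replicate block and the share of counts on TEC loci. The fit without the 2 Week2 libraries of few erythroid counts was added after seeing the data.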

Additional observations from a re-analysis of the deposited data

How the results depend on the processing

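Of the 22 values called in the main tests, none of 530 values under the alternatives had the opposite sign and 463 passed the threshold. The number of the 10 genes called over time moved most. In WT it was 5, where 29.9% of all genes were called. It was 0 with limma voom (7.07% of genes), and 1 with the TEC share as a covariate (12.3%) or with only the groups compared (6.81%). It was 2 with all 16 libraries in 1 fit (20.6%). With 1 library of a group of 3 left out in turn it was 3 to 5, against 16.7% to 23.2% of genes (3 without Day2_WT replicate 2). In the libraries labelled Gata2 it was 2, where 9.3% of all genes were called. It was 0 with all 16 libraries (3.89% of genes) and 1 with no low count filter (4.09%). It was 4 with only the groups compared (31.9%), 5 with the TEC share (26.3%) and 6 with limma voom (21.5%). With 1 library of a group of 3 left out it was 0 to 2, against 3.7% to 8.21% of genes. It was 0 without Day0_Gata2 replicate 1 or 2, and 1 without Day2_WT replicate 2 or Day0_Gata2 replicate 3. Leaving out a library of a group of 2 leaves a single library there, and the count then moved further. Same-numbered replicates did not deviate together in every pair (r of -0.156 to 0.095 in the LSK libraries, and 0.601, -0.749 and 0.355 at Week2), so the numbers were not taken to pair them. With a replicate block 2 genes were called in WT and 1 in the libraries labelled Gata2, against 14.3% and 3.89% of all genes.

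With 1 library of a group of 3 left out, 0 of the 10 genes were called for the Day0 genotype difference and for its change to Day2 and to Week2. In these fits 0% of all genes were called. Some of the 10 were called without Day0_WT replicate 2, which left replicate 1 alone in its group, and calls then rose over all genes as well. WT at Week2 against Day0 had 8 calls, against 33.5% of all genes, and 5 with limma voom, against 30%. With 1 library of a group of 3 left out it had 6 to 9, against 19.8% to 45.8%. Limma voom called 1 gene for the Week2 genotype difference, against 35.3% of all genes. Over all comparisons 124 of 1920 values of the 10 genes under alternatives changed sign, each of a value not called in the main tests. Of those given above, at Day0 Lyl1 was 0.23 with the TEC share and -0.62 to 0.02 with 1 library left out, at Day2 Tal1 was -0.16 to 0.88, and Samd14 in WT over time was -1.86 with the TEC share. With limma voom at Week2, Tal1 was 0.55, Samd14 0.19 and Adgrg1 0.23 between genotypes, and Spi1 was -0.14 against Day0 in the libraries labelled Gata2. The cause was not tested, but leaving out a library of a group of 2 also loosens the low count filter. RLE and upper quartile scaling moved the median log2 fold change of all genes from -0.11 to -0.20 and -0.26 in WT over time, and from 1.22 to 1.35 and 1.40 for Week2 against Day0 in the libraries labelled Gata2, where Lyl1 then did not pass (adjusted p = 0.0532 and 0.0628). Of the 28-gene list, 10 genes were called in WT over time in the main fit, where 29.9% of all genes were. With the TEC share 3 were called (12.3% of all genes) and with limma voom 5 (7.07%), and Gfi1b was -0.41 with the TEC share. In the libraries labelled Gata2 the list's count was 6 in the main fit, where 9.3% of all genes were called. It was 2 with all 16 libraries or a replicate block, where 3.89% of genes were called. With 1 library of a group of 3 left out it was 1 to 4, against 3.7% to 8.21% of genes. Without Day0_WT replicate 2, which left replicate 1 alone in its group, genes of both lists were called for the Day0 genotype difference, as were many of all genes. With limma voom at Week2, 6 and 3 genes of the 28-gene and 13-gene lists were called, against 35.3% of all genes. The list genes named for Week2 against Day0 passed in all alternative fits. Cell population and depth cannot be told apart from time at Week2, and the kit used for each library is not given. Small groups limit what the genotype comparisons can show.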
